A study of Mus musculus with 9 samples.

Results

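The aldehyde dehydrogenases other than Aldh2 followed here are 10 genes, taken from the table by symbol from a list drawn up with earlier results of these data known: Aldh3a2, Aldh1a1, Aldh1a7, Aldh1l1, Aldh4a1, Aldh5a1, Aldh6a1, Aldh7a1, Aldh8a1 and Aldh9a1. They are 10 of the 55253 symbols in the table, and all 10 had reads in every library. Liver RNA was measured by 3′ mRNA sequencing in 9 male C57Bl/6J mice of one age with no transgene or deletion named in the labels. The WD+alcohol group was 5 mice given a Western diet, a rodent diet that induces fatty liver, and sweetened water holding 10% alcohol, starting at an age of 10 weeks and lasting 23 weeks. The control group was 4 mice on chow and plain tap water. The diet, the alcohol and the sweetener came as one treatment, and their effects cannot be told apart. Levels are deposited TMM-scaled CPM, that is read counts scaled to library size and composition, and a 3′ library counts a transcript regardless of its length.

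Aldehyde dehydrogenases use NAD+ or NADP+ to oxidise an aldehyde to its carboxylic acid. Aldh2, the mitochondrial enzyme best known in liver for clearing the acetaldehyde made from ethanol, is one of a superfamily whose other members serve lipid aldehydes, retinaldehyde, folate, amino acid breakdown and carnitine synthesis. Aldh3a2 is the fatty aldehyde dehydrogenase of the endoplasmic reticulum and peroxisome, and its loss causes Sjögren-Larsson syndrome in humans.

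Of the 10 members, 1 rose in WD+alcohol livers and 0 fell, by limma-trend on log2(CPM + 1) with Benjamini-Hochberg adjustment over all 14759 genes tested. The member that rose was Aldh3a2, to a mean of 349.7 ± 106 CPM in WD+alcohol livers against 127 ± 17.5 CPM in controls (SD, n = 5 and 4). Over all genes tested, 2.29% passed the same threshold, 1.61% higher and 0.678% lower in WD+alcohol. Aldh3a2 was also the 1 member of 10 whose groups did not overlap, and 5.34% of all genes tested had groups that did not overlap (3.34% higher, 2% lower). At an unadjusted p under 0.05 there were 3 members (Aldh3a2, Aldh1l1 and Aldh9a1), against 12.2% of all genes tested (7.41% higher, 4.77% lower). On recovered reads the same 1 member passed edgeR's quasi-likelihood test and DESeq2, which called 2.13% and 3.69% of all genes. The log2 fold change was positive for 6 members and negative for 4, with a median of 0.11, beside -0.0008 over all genes tested. In whole liver, fewer cells of a type and less RNA per cell cannot be told apart.

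**Figure D1:**
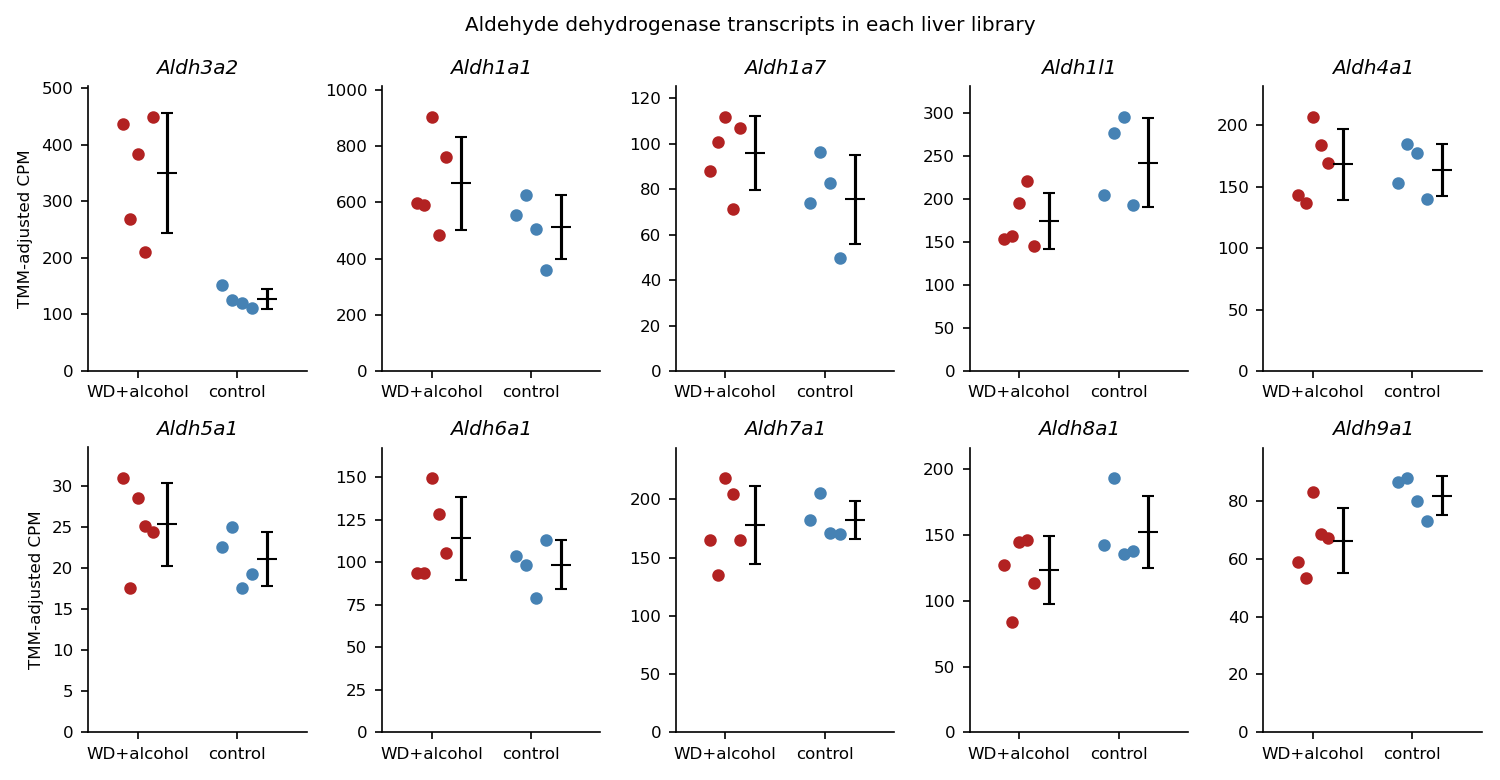
Level of each of the 10 members (CPM, axis from 0) in the 5 WD+alcohol livers and, to their right, the 4 control livers. Points are libraries, and the bar beside them is the group mean with its SD. Aldh3a2 is the panel without overlap, at 209.5 to 449.6 CPM in WD+alcohol and 111 to 151 CPM in controls.

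The 250 bases before the annotated start of Aldh3a2 are shown because it is the member that moved. The window is chr11:61267187-61267436 on the minus strand of GRCm38.p6, from RefSeq, with matches to the searched motifs CACGTG (an E-box) and CCAAT in capitals.
Aldh3a2: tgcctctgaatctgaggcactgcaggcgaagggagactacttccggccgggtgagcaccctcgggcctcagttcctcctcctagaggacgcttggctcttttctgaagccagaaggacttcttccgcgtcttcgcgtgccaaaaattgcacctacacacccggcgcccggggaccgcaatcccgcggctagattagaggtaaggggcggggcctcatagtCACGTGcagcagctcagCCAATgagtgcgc
The E-box match begins 30 bases before the start and the CCAAT match 13 bases before it. On either strand, 6.02% of 32851 RefSeq windows of this length hold CACGTG and 33.8% hold CCAAT. There was no match to AGGTCA repeated in the same direction after 1 base, a strict form of the direct repeat bound by PPAR-alpha with RXR, which 0.0335% of windows hold, or to TGACNNNGC, the core of the antioxidant response element, which 10.2% hold. These motifs were picked after the sequence had been read, and a match or its absence describes the letters only.

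Aldh3a2 was at 437, 268, 384, 209.5 and 449.6 CPM in WD+alcohol livers 1 to 5, against 151, 125, 119.6 and 111 CPM in control livers 1 to 4. The lowest WD+alcohol liver, number 4, was above the highest control, number 1, and the WD+alcohol livers spread more (CV 30.4%) than the controls (13.8%). The log2 fold change was 1.41 ± 0.20 (SE; 95% interval 0.99 to 1.83), a 2.65-fold difference, with a limma-trend adjusted p of 0.00153. In order from the most positive to the most negative log2 fold change, it ranked 75 of 14759 genes. These values rest on 1383 to 2246 reads per WD+alcohol library and 584 to 918 reads per control library.

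WD+alcohol 1 had the fewest reads of the 9 libraries (3635860) and lay furthest out on the first principal component. Without it the log2 fold change of Aldh3a2 was 1.31, with a limma-trend adjusted p of 0.00363. Leaving out any other library gave 1.30 to 1.58, and adjusted p-values of 0.00683 or less.

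Within each library, Aldh3a2 took a larger part of the members' reads in WD+alcohol. Its share of the summed level of the 10 members was 23.0%, 16.4%, 15.8%, 12.0% and 21.3% in WD+alcohol livers 1 to 5, against 9.03%, 6.52%, 7.19% and 8.11% in control livers. Among the 10 members it ranked number 2 in 4 of the WD+alcohol livers and number 3 in liver 4, against 5 to 7 in controls. The 10 members together came to 1963 ± 315 CPM in WD+alcohol and 1655 ± 227 CPM in controls (SD, n = 5 and 4). Without Aldh3a2 the sums were 1613 ± 263 CPM in WD+alcohol and 1529 ± 221 CPM in controls, a difference smaller than either SD.

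The level of Aldh3a2 was set against that of Aldh2 in the same library, since, but for the pseudocount, such a ratio does not depend on how libraries are scaled. Aldh2 averaged 1204 ± 177 CPM in WD+alcohol and 1056 ± 156 CPM in controls, with a log2 fold change of 0.19 (95% interval -0.08 to 0.45) and a limma-trend adjusted p of 0.608. Aldh3a2 was at 0.340, 0.269, 0.263, 0.188 and 0.389 of the Aldh2 level in WD+alcohol livers, against 0.149, 0.101, 0.138 and 0.101 in control livers. The groups did not overlap, and the lowest ratio in WD+alcohol was again that of liver 4. On the log2 scale the mean ratio was -1.83 ± 0.40 in WD+alcohol and -3.05 ± 0.29 in controls (SD), a difference of 1.22. A two-sided exact permutation test over the 9 libraries gave p = 0.0159. Aldh3a2 was chosen with its earlier result known, so this p adds no independent evidence.

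**Figure D2:**
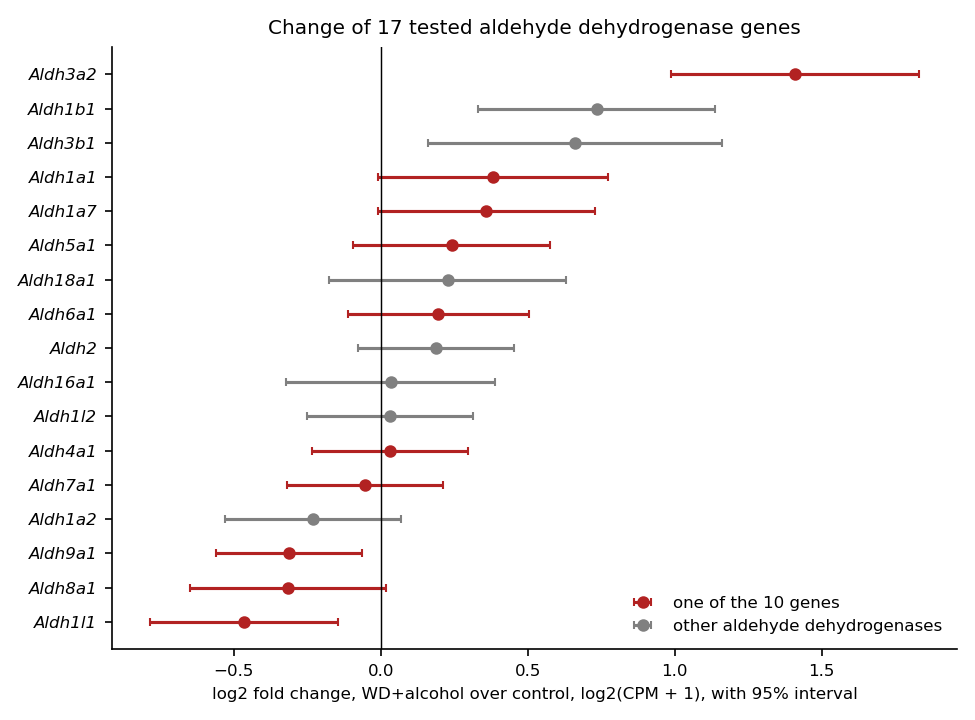
Log2 fold change (WD+alcohol over control, with its 95% interval) of the 10 members (red) and of the 7 other aldehyde dehydrogenases that were tested (grey). The interval of Aldh3a2, 0.99 to 1.83, lies apart from those of the other members. Among the grey genes, the intervals of Aldh1b1 (0.33 to 1.14) and Aldh3b1 (0.16 to 1.16) overlap it.

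The genes whose pattern over the 9 libraries lay nearest to that of Aldh3a2 were sought among 11029 others averaging 5 CPM or more, by the mean absolute difference of log2 values centred per gene. In order they were Acaa1b (0.107), Acot2 (0.147), Tmem106a (0.205), Ehhadh (0.217) and Itga9 (0.234). Acaa1b is a peroxisomal thiolase, Ehhadh the peroxisomal bifunctional enzyme of fatty acid oxidation, Acot2 a mitochondrial acyl-CoA thioesterase, Itga9 an integrin subunit and Tmem106a a membrane protein. Since the measure uses the difference between the groups, that these genes differ between them is part of how they were found.

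Acaa1b was at 946, 740.1, 1116, 587 and 1122 CPM in WD+alcohol livers, against 389, 354, 329.9 and 337 CPM in control livers; it has a close copy, Acaa1a, so its reads are uncertain. Ehhadh was at 41.8, 28.9, 44.1, 25.0 and 47.8 CPM in WD+alcohol livers, against 20.1, 9.03, 7.99 and 10.8 CPM in control livers. Acot2 was at 68.7, 47.8, 64.0, 31.1 and 86.7 CPM in WD+alcohol livers, against 20.6, 20.2, 16.0 and 21.6 CPM in control livers. In all 3 genes, as in Aldh3a2, liver 5 was the highest and liver 4 the lowest of the WD+alcohol group, and the groups did not overlap. Log2 fold changes were 1.31 for Acaa1b, 1.61 for Ehhadh, 1.49 for Acot2, 1.10 for Tmem106a and 1.17 for Itga9, with limma-trend adjusted p-values of 7.04e-04 to 0.00457.

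**Figure D3:**
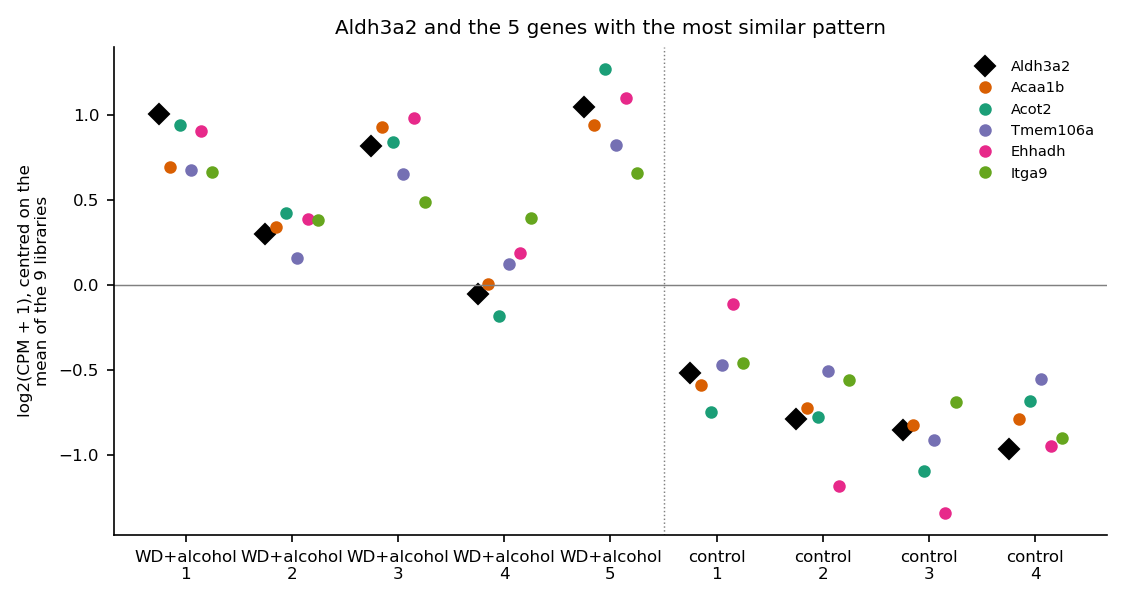
Log2(CPM + 1) of Aldh3a2 (diamonds) and its 5 nearest genes (circles) in the 9 libraries, each gene centred on its mean over them. In the 5 WD+alcohol livers, on the left, Aldh3a2, Acot2 and Tmem106a share one order (5, 1, 3, 2, 4 from high to low).

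The fatty aldehyde list, which sets the genes around Aldh3a2 beside it, held omega-hydroxylases, ether lipid, sphingosine phosphate, phytol and alpha-oxidation genes. Of its 17 tested genes, 0 rose and 2 fell; 5 log2 fold changes were positive and 12 negative, with a median of -0.11. Cyp4f14, an omega-hydroxylase, fell to 49.9 ± 16.2 CPM in WD+alcohol against 117 ± 14.4 CPM in controls, by 1.26 ± 0.19 (SE) on the log2 scale, with a limma-trend adjusted p of 0.00257. Cyp4a12b, an omega-hydroxylase that is high in male mice, fell to 47.0 ± 9.38 CPM in WD+alcohol against 109.9 ± 36.2 CPM in controls, with a limma-trend adjusted p of 0.00496. Cyp4a10 and Cyp4a14, the most abundant omega-hydroxylases of the list, had positive log2 fold changes that did not pass. Cyp4a10 was at 616 ± 218 CPM in WD+alcohol and 373 ± 115 CPM in controls (log2 fold change 0.70, limma-trend adjusted p = 0.164). Cyp4a14 was at 453 ± 261 CPM in WD+alcohol and 250 ± 225 CPM in controls (log2 fold change 0.98, limma-trend adjusted p = 0.438). That of Cyp4a12a was -1.27 and did not pass (limma-trend adjusted p = 0.073). The Cyp4a genes are close copies, so their reads are uncertain.

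The retinaldehyde enzyme Aldh1a1 and its mouse relative Aldh1a7 are neighbouring genes on chromosome 19. Their windows before the start are shown because the 2 genes are close copies. They lie at chr19:20601718-20601967 on the plus strand for Aldh1a1 (the downstream one of 2 listed starts) and chr19:20727557-20727806 on the minus strand for Aldh1a7, in RefSeq on GRCm38.p6. Capitals mark CCAAT, ATGCAAAT (the octamer) and TATAAA.
Aldh1a1: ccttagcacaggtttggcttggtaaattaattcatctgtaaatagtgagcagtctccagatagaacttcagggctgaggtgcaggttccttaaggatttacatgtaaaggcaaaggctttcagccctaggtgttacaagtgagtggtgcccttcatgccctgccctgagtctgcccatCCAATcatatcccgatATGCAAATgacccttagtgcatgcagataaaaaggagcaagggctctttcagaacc
Aldh1a7: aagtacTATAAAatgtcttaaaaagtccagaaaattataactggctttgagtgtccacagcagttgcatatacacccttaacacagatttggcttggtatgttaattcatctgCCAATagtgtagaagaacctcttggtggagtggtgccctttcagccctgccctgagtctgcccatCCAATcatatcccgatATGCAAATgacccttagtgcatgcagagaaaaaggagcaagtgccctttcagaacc
Over the whole windows 65.7% of aligned positions are identical, and over the last 100 bases before the start 94% are. Both hold CCAAT at 72 and the octamer at 56 bases before the start, and 1.6% of RefSeq windows hold the octamer. Aldh1a7 alone of the pair holds a further CCAAT, at 137 bases, and TATAAA, at 244 bases, which 12.4% of windows hold. Their transcripts in GENCODE M21, of 2053 and 2066 bases, were 88.8% identical over the alignment and 77.1% over the last 500 bases, where 3′ reads fall. None of the 451 runs of 50 bases in the last 500 bases of one was found in the other (0 in each direction). With the counting of reads that map to several places not given in the sources used here, the split between the 2 genes is uncertain.

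Aldh1a1 was the most abundant of the 10 members in all 9 livers. It was at 599, 592, 906, 482 and 762 CPM in WD+alcohol livers, against 555, 627, 504 and 358 CPM in control livers. Liver 3 and liver 5 of the WD+alcohol group were above every control and the other 3 lay within the control range. Its log2 fold change of 0.38 (95% interval -0.01 to 0.77) did not pass the test (limma-trend adjusted p = 0.428). Aldh1a7 was at 88.1, 101, 112, 71.4 and 107 CPM in WD+alcohol livers, against 73.8, 96.2, 82.9 and 49.6 CPM in control livers. Again the groups overlapped, with 3 WD+alcohol livers above the highest control, and the log2 fold change of 0.36 (95% interval -0.01 to 0.73) did not pass (limma-trend adjusted p = 0.431).

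The ratio of Aldh1a1 to Aldh1a7 was 6.93 ± 0.793 in WD+alcohol and 6.83 ± 0.652 in controls (SD, n = 5 and 4). It ran from 5.88 to 8.08 in WD+alcohol livers and from 6.08 to 7.52 in control livers. On the log2 scale the groups differed by 0.02 (exact permutation test, two-sided, p = 0.841), and the sign turned without WD+alcohol 3 (-0.036) or control 3 (-0.032). Among the 11029 genes compared, the one nearest in pattern to Aldh1a1 was Aldh1a7 (mean absolute difference 0.11), and Aldh1a1 was number 3 among those nearest to Aldh1a7. This pair was looked at after its values had been seen.

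**Figure D4:**
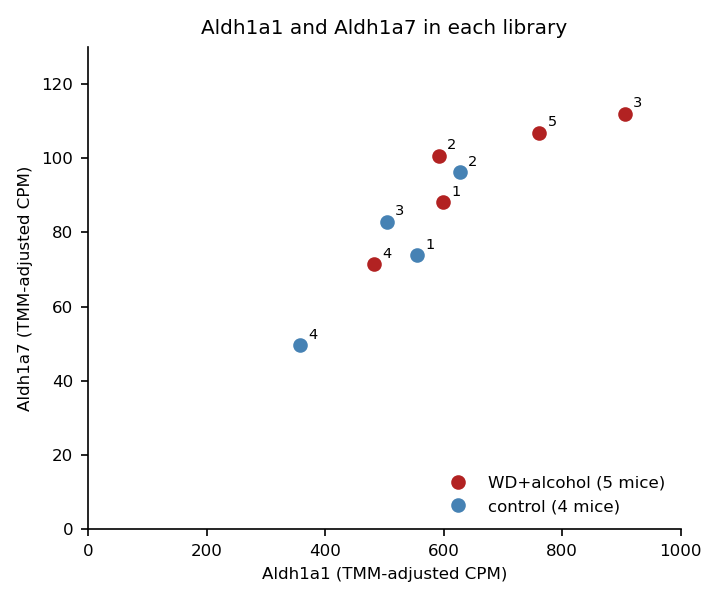
Aldh1a1 against Aldh1a7 (CPM, both axes linear from 0), 1 numbered point per liver. WD+alcohol and control livers overlap along both axes, and the ratio stays between 5.88 and 8.08 in all 9.

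In the retinoid list, 1 of 18 tested genes rose and 0 fell, with 7 positive and 11 negative log2 fold changes (median -0.11). The gene was Rdh16, a microsomal retinol dehydrogenase with close copies in mouse, at 60.7 ± 12.3 CPM in WD+alcohol and 38.0 ± 6.20 CPM in controls (log2 fold change 0.65, limma-trend adjusted p = 0.0303). Its call was lost without any one of WD+alcohol 3 or 5 or control 1, 3 or 4, with limma-trend adjusted p-values of 0.0593 to 0.0957.

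Aldh1l1, the cytosolic 10-formyltetrahydrofolate dehydrogenase of folate metabolism, was the member with the most negative log2 fold change. It was at 154, 158, 196, 221 and 145 CPM in WD+alcohol livers, against 204, 276, 296 and 193 CPM in control livers. The groups overlapped, with 3 of the 5 WD+alcohol livers below the lowest control. The log2 fold change of -0.46 ± 0.15 (SE; 95% interval -0.78 to -0.14) did not pass after adjustment (limma-trend adjusted p = 0.154). Its mitochondrial counterpart Aldh1l2 averaged 13.0 ± 2.04 CPM in WD+alcohol and 12.6 ± 0.627 CPM in controls, with a log2 fold change of 0.03.

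Of the 19 folate genes tested, 1 rose and 0 fell, 6 log2 fold changes were positive and 13 negative, and the median was -0.07. The gene that rose was the folate receptor Folr2, which macrophages express, at 9.44 ± 2.90 CPM in WD+alcohol and 2.45 ± 0.917 CPM in controls (95% interval of the log2 fold change 1.09 to 2.10, limma-trend adjusted p = 0.00239). Macrophage markers rose in the same livers: 12 of the 13 Kupffer cell and macrophage markers passed the test (Adgre1, Clec4f, Cd5l, Cd68, Trem2, Csf1r, Gpnmb, C1qa, C1qb, C1qc, Vsig4 and Lyz2, but not Timd4), and the summed level of the 13 was 673 to 1110 CPM in WD+alcohol against 218 to 358 CPM in controls. The calls of Clec4f and Csf1r were lost in some fits without 1 library (Clec4f without WD+alcohol 1 or 5, Csf1r without WD+alcohol 5 or control 1). The part of macrophages in the level of Folr2 was not tested.

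Aldh9a1, which oxidises trimethylaminobutyraldehyde in carnitine synthesis, was at 58.8, 53.5, 83.1, 68.6 and 67.1 CPM in WD+alcohol livers, against 86.3, 87.8, 79.8 and 72.9 CPM in control livers. All WD+alcohol livers but number 3 were below the lowest control, so the groups overlapped by that 1 liver. Its log2 fold change was -0.31 ± 0.12 (SE; 95% interval -0.56 to -0.06) and did not pass after adjustment (limma-trend adjusted p = 0.244). In the carnitine list 1 of 8 tested genes rose and 0 fell, with 4 positive and 4 negative log2 fold changes (median 0.03). Cpt1a, which loads long-chain fatty acids onto carnitine at the mitochondrion, rose to 186 ± 17.1 CPM in WD+alcohol against 124 ± 23.4 CPM in controls (log2 fold change 0.60, limma-trend adjusted p = 0.0136).

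Aldh8a1, the aminomuconate semialdehyde dehydrogenase of tryptophan breakdown through kynurenine, was at 127, 83.7, 145, 146 and 113 CPM in WD+alcohol livers, against 142, 193, 136 and 138 CPM in control livers. Of the WD+alcohol livers 3 were below the lowest control, and control 2 stood above all the others. The log2 fold change was -0.32 (95% interval -0.65 to 0.02; limma-trend adjusted p = 0.437). All 10 tested genes of the tryptophan list had negative log2 fold changes, from which 1 gene fell and 0 rose; the median was -0.21. The gene that fell was Acmsd, the decarboxylase that makes the semialdehyde, at 5.39, 5.81, 7.51, 14.2 and 3.80 CPM in WD+alcohol livers, against 15.5, 23.3, 23.1 and 12.9 CPM in control livers. WD+alcohol 4 lay above control 4, and the limma-trend adjusted p of 0.0277 became 0.0547 to 0.0874 without any one of WD+alcohol 1, 2 or 5 or control 1, 2 or 3.

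The 4 members that act in the breakdown of other amino acids and of GABA did not pass the test either. Aldh4a1, the pyrroline-5-carboxylate dehydrogenase of proline breakdown, was at 144, 137, 207, 184 and 169.8 CPM in WD+alcohol livers, against 153, 184, 178 and 139.6 CPM in control livers. Aldh7a1, or antiquitin, of lysine breakdown, was at 165, 135, 218, 204 and 165 CPM in WD+alcohol livers, against 182, 205, 172 and 170.0 CPM in control livers. In both genes the WD+alcohol livers reached further up and down than the controls. The log2 fold changes were 0.03 (95% interval -0.23 to 0.30) for Aldh4a1 and -0.05 (95% interval -0.32 to 0.21) for Aldh7a1, with limma-trend adjusted p-values of 0.959 and 0.920. The sign of Aldh4a1 turned without WD+alcohol 3, WD+alcohol 4 or control 4, and that of Aldh7a1 without WD+alcohol 2 or control 2 and with all libraries rescaled to one total.

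Aldh6a1, the methylmalonate semialdehyde dehydrogenase of valine and thymine breakdown, was at 93.5, 93.5, 149, 128 and 105 CPM in WD+alcohol livers, against 104, 98.3, 78.9 and 113 CPM in control livers. Aldh5a1, the succinic semialdehyde dehydrogenase of GABA breakdown, was at 31.0, 17.6, 28.5, 25.1 and 24.4 CPM in WD+alcohol livers, against 22.6, 25.0, 17.6 and 19.3 CPM in control livers. The groups of both genes overlapped, with 2 WD+alcohol livers above every control for Aldh6a1 and 3 for Aldh5a1. Log2 fold changes were 0.20 (95% interval -0.11 to 0.50) for Aldh6a1 and 0.24 (95% interval -0.09 to 0.57) for Aldh5a1, with limma-trend adjusted p-values of 0.661 and 0.60. Aldh5a1 had the fewest reads of the 10 members, 101 to 166 per library.

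Around these 4 members, single genes passed the test. In the list of proline and hydroxyproline breakdown 1 of 9 tested genes fell and 0 rose. This was Agxt, the peroxisomal alanine-glyoxylate aminotransferase, at 37.2 ± 9.49 CPM in WD+alcohol and 80.9 ± 14.7 CPM in controls. Its log2 fold change was -1.12, with a limma-trend adjusted p of 0.00299. In the GABA list 1 of 6 rose and 0 fell: Suclg2, the GTP-linked subunit of succinyl-CoA synthetase, was at 82.2 ± 6.74 CPM in WD+alcohol and 53.5 ± 2.46 CPM in controls (log2 fold change 0.61, limma-trend adjusted p = 0.00102). Of the 17 valine, thymine and propionate genes 0 passed, by limma-trend, edgeR or DESeq2, and 4 had an unadjusted limma-trend p under 0.05. Of the 8 genes of the list of lysine breakdown and choline oxidation 0 passed by the same tools. Among them, 2 had an unadjusted limma-trend p under 0.05. The most abundant gene of the valine list was Hibadh, at 185 ± 29.5 CPM in WD+alcohol and 178 ± 21.0 CPM in controls. That of the lysine and choline list was Bhmt, from its choline part, at 566 ± 114 CPM in WD+alcohol and 517 ± 265 CPM in controls.

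**Figure D5:**
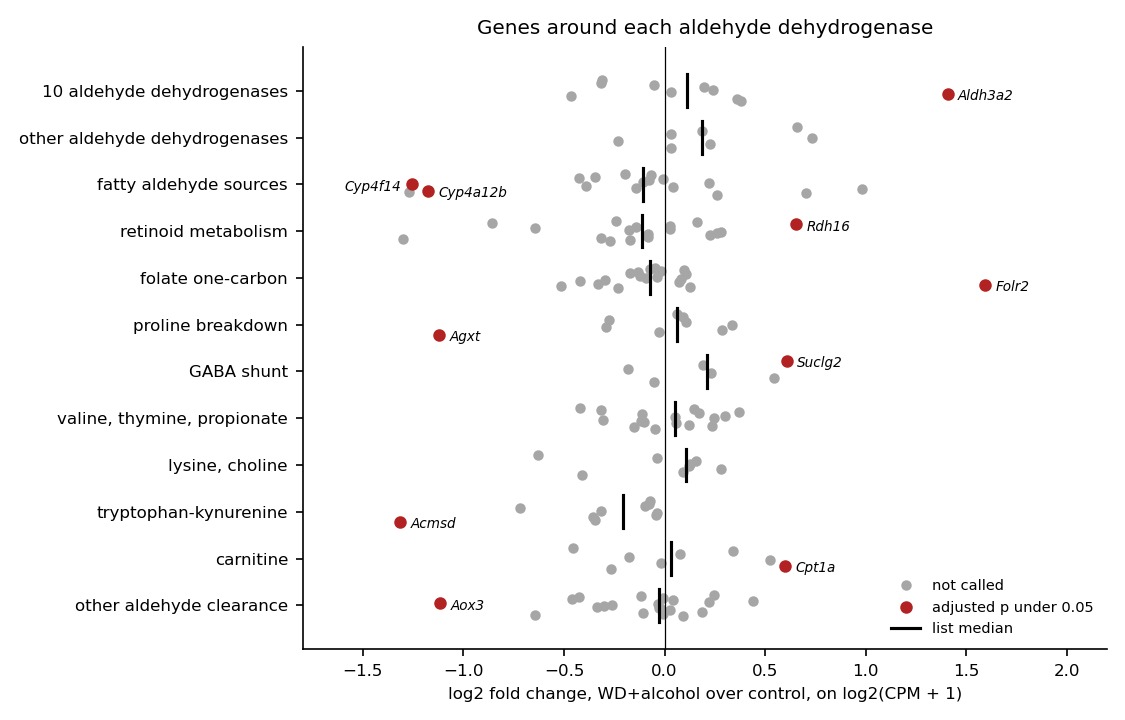
Log2 fold changes (WD+alcohol over control) of the tested genes, 1 row each for the members, the other aldehyde dehydrogenases and the 10 lists around them. Genes that passed the test are red and named, others are grey, and a vertical bar is the row's median; between 0 and 2 genes passed in each row.

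Over the 10 lists, 9 of 133 tested genes passed (6.77%, against 2.29% of all genes tested), 4 higher and 5 lower. There were 52 positive and 81 negative log2 fold changes, with a median of -0.05. The lists were drawn up with earlier results of these data known, so the larger share is no evidence of enrichment. The list of other enzymes that clear aldehydes held 21 tested genes, of which 0 rose and 1 fell. Aox3, a liver aldehyde oxidase that makes acids from aldehydes without NAD+, was at 57.9 ± 11.6 CPM in WD+alcohol and 125 ± 15.2 CPM in controls (log2 fold change -1.11 ± 0.14 SE, limma-trend adjusted p = 7.37e-04). Each WD+alcohol liver (40.3 to 69.4 CPM) was below each control liver (107 to 142 CPM).

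In the order of mean levels in WD+alcohol livers, Aldh1a1 was followed by Aldh3a2, Aldh7a1, Aldh1l1, Aldh4a1, Aldh8a1, Aldh6a1, Aldh1a7, Aldh9a1 and Aldh5a1. Only the first pair and the last pair of neighbours in that order did not overlap. In control livers the order was Aldh1a1, Aldh1l1, Aldh7a1, Aldh4a1, Aldh8a1, Aldh3a2, Aldh6a1, Aldh9a1, Aldh1a7 and Aldh5a1, and there too only the first and the last pair of neighbours did not overlap. Livers at the top or bottom of their group were often the same ones across members: 6 of the 10 were highest in WD+alcohol 3 among the WD+alcohol livers and 6 were lowest in WD+alcohol 2. Among the controls, 7 were highest in control 2 and 7 lowest in control 4. Alb and Aldh2, which are not members, were also highest in WD+alcohol 3, lowest in WD+alcohol 2 and, among controls, highest in control 2. Neither was lowest in control 4, and Serpina1c was highest in WD+alcohol 4. How far this held for other genes was not tested.

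The superfamily's 11 other genes were in the table as well, and 7 of them, Aldh2 included, were tested. By limma-trend 0 passed, by edgeR's quasi-likelihood test 0 and by DESeq2 1 (Aldh1b1), and 2 had an unadjusted limma-trend p under 0.05 (Aldh1b1 and Aldh3b1). Of the 7, 6 log2 fold changes were positive and 1 negative, and the median was 0.19. Nearest to the threshold was Aldh1b1, a mitochondrial enzyme related to Aldh2 that also oxidises acetaldehyde. It was at 36.7, 41.7, 56.7, 63.9 and 64.5 CPM in WD+alcohol livers, against 24.6, 43.3, 27.5 and 29.6 CPM in control livers. Livers 1 and 2 of the WD+alcohol group were below control 2 and all other WD+alcohol livers were above every control. The log2 fold change was 0.73 ± 0.19 (SE; 95% interval 0.33 to 1.14), with a limma-trend adjusted p of 0.0625. In 5 of 21 alternative settings Aldh1b1 passed, DESeq2 (adjusted p = 0.00877) and the fit without control 2 (adjusted p = 0.0196) among them, and over all 21 the adjusted p ran from 0.00877 to 0.261.

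The remaining genes were low. Aldh3b1 averaged 1.92 ± 0.653 CPM in WD+alcohol and 0.822 ± 0.225 CPM in controls (limma-trend adjusted p = 0.212). Aldh1a2, a retinaldehyde dehydrogenase, averaged 10.8 ± 1.57 CPM in WD+alcohol and 12.8 ± 1.65 CPM in controls. Aldh16a1 was at 29.8 ± 5.21 CPM in WD+alcohol and 29.4 ± 7.06 CPM in controls, and Aldh18a1, of proline synthesis, at 13.2 ± 2.71 CPM in WD+alcohol and 11.1 ± 2.40 CPM in controls. Aldh3a1, the neighbour of Aldh3a2 on chromosome 11, had between 1 and 8 reads in each library and was below the filter, as were Aldh1a3, Aldh3b2 (0 reads in all 9) and Aldh3b3 (1 read in all).

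The libraries held 3635860 to 6643645 reads in WD+alcohol and 5050763 to 5910285 in controls. On the first principal component (28.9% of the variance) WD+alcohol livers lay at 2.07 to 42.1 and controls at -22.1 to -16.7. The tissue label was met by hepatocyte markers, though their summed level was lower in WD+alcohol: 34929 to 48873 CPM against 54244 to 78056 CPM in controls, with 3 of 7 tested markers lower (Alb, Apoa1 and Serpina1c) and 0 higher. Of 21 alternative settings, Alb passed in 8, Apoa1 in 11 and Serpina1c in 16, and with 1 library left out their limma-trend adjusted p reached 0.137 for Alb, 0.117 for Apoa1 and 0.0568 for Serpina1c. Pericentral markers summed to 3942 to 6672 CPM in WD+alcohol and 4441 to 5124 CPM in controls (Glul higher, Cyp27a1 and Cyp1a2 lower, of 10), and periportal markers to 2511 to 3923 CPM in WD+alcohol and 4005 to 5563 CPM in controls (Pck1 lower, of 10). The call of Glul was lost when WD+alcohol 5 or control 1 was left out.

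Stellate cell and fibroblast markers summed to 5456 to 6404 CPM in WD+alcohol and 5297 to 6187 CPM in controls. Of these, 2 of 12 were higher, Dcn and Lum. The sum was mostly Col1a2, Col1a1 and Acta2, with means of 2276, 1972 and 966 CPM in WD+alcohol. In controls their means were 2356, 2075 and 1005 CPM, so the low markers weighed little in the sum. Sinusoidal endothelial markers summed to 219 to 283 CPM in WD+alcohol and 175 to 236 CPM in controls (1 of 9 higher, Fcgr2b). Lum passed in 16 and Fcgr2b in 18 of the 21 alternative settings, and neither passed without WD+alcohol 5 or without control 3; Lum was also lost without control 1. Cholangiocyte markers summed to 217 to 259 CPM in WD+alcohol and 218 to 239 CPM in controls (0 of 5 tested), and lymphocyte markers to 249.6 to 303 CPM in WD+alcohol and 234 to 297 CPM in controls (0 of 7 tested, Cd79a at 0). Adipocyte markers summed to 27.5 to 151 CPM in WD+alcohol and 14.6 to 20.2 CPM in controls (2 of 3 tested higher, Cidea and Cfd). Cidea passed in 9 of the 21 settings, and with 1 library left out its limma-trend adjusted p reached 0.122. Of the defining adipocyte markers, Lep was at 0 in all libraries, and Adipoq, Plin1, Retn and Adig were at or near 0, at most 1.08 CPM in any library. The part of these cell types in the level of Aldh3a2 was not tested.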

How the data were processed

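Liver RNA of 9 mice was made into libraries with the Collibri 3′ kit, per the labels' protocols. The authors used cutadapt 1.18 through Trim Galore 0.6.0, STAR with build GRCm39, HTSeq 0.11.0 and edgeR 3.28.1, per the submitters' processing notes. The deposited signal is CPM scaled by TMM by the authors, for 55253 symbols. Strand and multimapping settings are not given in the sources used here. All positive values (100%, relative tolerance 1e-06) were whole multiples of 1 read (0.152 to 0.270 CPM), and the recovered reads gave depth and the count-based alternatives. A count of 0 allows 0.455 to 0.809 CPM (3 reads), counting error only.

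Samples were grouped by title. Each library was taken as 1 mouse, and p-values measure the spread between these mice. The two-sided limma-trend test (limma 3.58.1 in R 4.3.3) was run on log2(CPM + 1) for genes averaging 1 CPM or more, adjusted by Benjamini-Hochberg over 14759 genes (threshold 0.05); a fold change on this scale understates low genes. The 2 ratios within libraries used exact permutation tests. Alternatives were other pseudocounts, filters and scalings, robust and weighted fits, a replicate block, each library left out in turn, and count models (edgeR 4.0.16, DESeq2 1.42.0) on recovered reads. No pair of libraries agreed within counting noise (lowest chi-square per degree of freedom 5.96).

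The members and the gene lists were chosen with earlier results of these data known. Named were all members, tested relatives, and called genes of each list or else its most abundant. Also named were the 5 genes nearest in pattern to a called member, and markers called or at 0. A few further genes were named to set beside these. Promoters came from RefSeq (GRCm38.p6), transcripts from GENCODE M21, aligned with Biopython 1.88, and the reference is of another build than the table, so no other coordinates are given. The scripts were tested on simulated data, and figures were drawn with matplotlib 3.10.9.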

Additional observations from a re-analysis of the deposited data

Results flagged for a closer look

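Of 44 groups of values examined (the 10 members, the 7 tested relatives and the 5 genes nearest to Aldh3a2, each in both groups), 2 had a liver set far apart from the rest, where chance gives about 1 in 20. Aldh8a1 was at 193.1 CPM in control 2, with 0.885 of the group's range between it and the next control. Aldh18a1 was at 8.355 CPM in WD+alcohol 1, with 0.873 of the range between it and the next WD+alcohol liver.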

How the results depend on the processing

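The count of members called was 1 in each of 21 alternatives, and Aldh3a2 was called in all 21 (log2 fold change 1.30 to 1.58, adjusted p at most 0.0283). No other member was called in any. The lowest adjusted p was 0.0642 for Aldh1l1 and 0.0705 for Aldh9a1, each with 1 library left out. The count of all genes called was 338, 545 by DESeq2, 112 with the replicate block and 201 to 387 with 1 library left out (201 without WD+alcohol 5). That of list genes was 9, 14 by DESeq2, 5 with the block and 7 to 10 with 1 library left out. WD+alcohol 5 has no control of its number, so the fit with the block takes no group difference from that liver. Rescaling to one total made 77.6% of calls higher, against 70.4%. Replicate numbers did not pair the livers: same-numbered livers correlated at -0.31 to -0.01 and 0 of 8 correlated best with their own number. With the block, the ratio of Aldh3a2 to Aldh2 differed by 1.10 (exact permutation p = 0.125, the smallest possible with 4 pairs).

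Signs near 0 turned. Aldh7a1 gave 0.0012 with one total, and Aldh1l2 gave -0.0064 with quantile normalization and -0.034 with the block. Leaving out 1 library gave -0.036 to 0.079 for the Aldh1a1 to Aldh1a7 ratio, -0.048 to 0.10 for Aldh4a1, -0.13 to 0.039 for Aldh7a1, -0.034 to 0.097 for Aldh1l2, -0.12 to 0.16 for Aldh16a1, -0.027 to 0.13 for Hibadh and -0.064 to 0.53 for Bhmt. The cause was not tested. Depth limits Aldh3b1, Aldh1a3, Aldh3a1, Aldh3b2 and Aldh3b3, all under 20 reads in each library.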
